A study of Mus musculus with 20 samples.

Results

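The genes described are 10 genes of the Hedgehog signalling pathway in embryonic stem (ES) cells of the mouse and in the embryoid bodies made from them. They are the ligands Shh and Ihh, the receptor components Ptch1, Smo, Boc and Gas1, the ligand-binding inhibitor Hhip and the transcription factors Gli1, Gli2 and Gli3. They were chosen by symbol, and 10 of 10 were found among 53440 symbols of the RNA-seq table and among 20462 genes of each ChIP-seq table. The study removed p150 from TL1 mouse ES cells with CRISPR/Cas9; p150 belongs to CAF-1, a chaperone that puts histones onto newly made DNA. Knockout (KO) embryoid bodies (EB KO) were compared with wild type (WT) embryoid bodies (EB WT), and knockout ES cells (ES KO) with wild type ES cells (ES WT). ES cells were kept with serum and LIF, the cytokine that holds them undifferentiated, and EB in the same medium lacking LIF. RNA-seq had 2 libraries in each of the 4 groups. ChIP-seq of H3K27me3 and of H3K4me3 had 1 library per group and mark. The ChIP titles of EB carry a 7 that the labels do not explain. The age of the EB is not stated in words, and the number of knockout clones and whether the 2 RNA libraries of a group came from separate cultures are not given in the labels. The p-values therefore cover variation among libraries, which may be technical only.

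Hedgehog ligands are secreted proteins that bind Ptch1, a membrane protein which in their absence holds Smo inactive. Boc and Gas1 help the ligand bind, and Hhip binds it and keeps it from the receptor. Active Smo acts at the primary cilium and lets GLI proteins switch on their targets. Gli2 is the main activator and Gli3 largely a repressor, while Gli1, Ptch1 and Hhip are themselves targets and often serve as readouts of the pathway. In the mouse embryo Ihh is made by visceral endoderm, where it supports blood and vessel formation, and Shh by notochord, floor plate and gut endoderm. H3K27me3 is the mark of Polycomb repression and H3K4me3 a mark of active promoters, and developmental genes in ES cells often carry both.

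The RNA values are FPKM, fragment numbers scaled to transcript length and sequencing depth, with totals from 641813 to 782026 per library. The files give no read counts, so depth is unknown. The 10 ES cell markers summed to between 5272 and 7516 FPKM in EB KO, 281 and 535 in EB WT, 5615 and 5663 in ES KO and 5671 and 6106 in ES WT. Dppa5a alone had 5903 and 3983 FPKM in EB KO, and the other 9 markers summed to 1613 and 1290 FPKM there, below every ES library (2539 to 3054). Of the 10 markers 4 were called lower in EB KO than in ES KO and 0 higher (median log2 difference -0.82). Of all genes 12.0% were called lower and 17.1% higher in that comparison. In bulk samples, fewer cells of a type and less RNA per cell cannot be told apart.

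The members lie on mm10 as follows, with the loci of the RNA table. Shh (ENSMUSG00000002633.4) spans 28456815 to 28467256 on chromosome 5, and Ihh (ENSMUSG00000006538.12) 74945315 to 74951672 on chromosome 1. Ptch1 (ENSMUSG00000021466.12) spans 63508328 to 63573598 and Gas1 (ENSMUSG00000052957.8) 60174405 to 60177365, both on chromosome 13. Smo (ENSMUSG00000001761.7) spans 29735503 to 29761365 on chromosome 6, Boc (ENSMUSG00000022687.12) 44485049 to 44558897 on chromosome 16 and Hhip (ENSMUSG00000064325.4) 79965851 to 80058006 on chromosome 8. Gli1 (ENSMUSG00000025407.7) spans 127329882 to 127341974 on chromosome 10, Gli2 (ENSMUSG00000048402.14) 118834132 to 119053619 on chromosome 1 and Gli3 (ENSMUSG00000021318.15) 15463235 to 15730026 on chromosome 13. The end of Gli1 overlaps the locus of Arhgap9, which reached 9.62 FPKM, and Gli3 a short locus that reached 6.90 FPKM. The other overlapping loci stayed at 1.49 FPKM or less, and whether counting used strand is not given in the sources used here.

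RefSeq promoters (GRCm38.p6, 250 bases before to 50 after the start of transcription) were held for 7 of the 10 members. The 4 below were picked by the deposited H3K27me3 value in wild type EB, Gli2 and Ihh with high values and Ptch1 and Gas1 with low ones. Since that value also rises with locus length, the choice ranks no gene against another. CG dinucleotides are in capitals, and all 4 lie on the minus strand and run 5′ to 3′.
Gli2, chr1:119053570-119053869: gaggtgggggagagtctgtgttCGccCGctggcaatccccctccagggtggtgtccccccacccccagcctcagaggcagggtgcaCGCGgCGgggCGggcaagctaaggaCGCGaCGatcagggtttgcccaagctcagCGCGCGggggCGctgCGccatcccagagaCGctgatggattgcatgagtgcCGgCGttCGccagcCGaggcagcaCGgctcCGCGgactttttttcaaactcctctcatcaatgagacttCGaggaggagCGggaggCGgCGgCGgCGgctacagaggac
Ihh, chr1:74951623-74951922: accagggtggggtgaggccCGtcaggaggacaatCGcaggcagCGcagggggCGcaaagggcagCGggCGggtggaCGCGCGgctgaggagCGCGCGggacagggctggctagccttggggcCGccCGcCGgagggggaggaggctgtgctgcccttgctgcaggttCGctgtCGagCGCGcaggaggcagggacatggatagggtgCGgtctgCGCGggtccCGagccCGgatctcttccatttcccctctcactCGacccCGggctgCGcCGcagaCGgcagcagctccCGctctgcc
Ptch1, chr13:63565686-63565985: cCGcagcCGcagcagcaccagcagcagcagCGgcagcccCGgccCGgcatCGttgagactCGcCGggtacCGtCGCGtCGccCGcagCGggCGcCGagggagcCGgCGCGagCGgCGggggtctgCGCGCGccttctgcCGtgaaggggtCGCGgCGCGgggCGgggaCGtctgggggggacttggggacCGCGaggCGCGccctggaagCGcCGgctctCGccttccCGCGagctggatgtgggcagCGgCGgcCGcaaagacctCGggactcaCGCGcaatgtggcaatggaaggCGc
Gas1, chr13:60177486-60177785: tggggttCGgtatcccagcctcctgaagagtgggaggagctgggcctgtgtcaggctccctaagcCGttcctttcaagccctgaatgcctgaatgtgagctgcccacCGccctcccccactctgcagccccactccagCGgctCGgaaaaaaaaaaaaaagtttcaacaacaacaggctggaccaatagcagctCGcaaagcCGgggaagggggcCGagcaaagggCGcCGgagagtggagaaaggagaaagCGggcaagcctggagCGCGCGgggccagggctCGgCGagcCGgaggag
Gli2 held 28 CG dinucleotides, Ihh 30, Ptch1 47 and Gas1 17, against a median of 7 over 32851 mouse promoters. The other entries held 39 (Gli3), 30 (Hhip) and 17 (Smo), so all 7 stood at percentile 70.3 or above for CG. The GLI consensus GACCACCCA, searched on both strands, was in 0 of the 7 windows and in 83 (0.253%) of all promoters. No match says only that these letters are not in the window.

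Knockout EB had lower RNA of both ligands, of Smo, Boc and Gas1 and of all 3 Gli genes than wild type EB. Of the 9 members that passed the filter of 1 FPKM in 2 libraries, 8 fell and 0 rose (limma on log2(FPKM + 1), adjusted p under 0.05), and Ptch1 was not called. Of all 15428 genes tested, 25.9% were called lower and 20.0% higher, that is 3992 and 3082 genes. With quantile normalization 3500 genes were called lower and 3601 higher, and the median of all genes was 0.03. Without that scaling the median log2 difference was -1.62 over the 9 members and -0.06 over all genes. The filter bears on this. Shh reached 1 FPKM in the wild type EB libraries alone, and Ihh and Boc in those and EB KO replicate 2. Without wild type EB, Shh, Ihh and Boc would not have passed, so their falls are built into the count. Hhip did not pass. In ES cells no member was called between the genotypes.

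Shh, the ligand of notochord and floor plate, had 0.0728 and 0.543 FPKM in EB KO and 14.2 and 11.5 in EB WT. It had 0.0187 and 0 in ES KO and 0.0352 and 0.0187 in ES WT. It was thus seen above 1 FPKM in wild type EB only. The log2 difference of EB KO from EB WT was -3.42 ± 0.22 (SE, adjusted p = 0.000237), and the ratio of mean FPKM was 0.0240.

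Ihh, the ligand of visceral endoderm, had 0.825 and 1.65 FPKM in EB KO, 4.20 and 2.61 in EB WT, 0.130 and 0.102 in ES KO and 0.103 and 0.131 in ES WT. Every EB library stood above every ES library, and both knockout EB libraries below both wild type ones. The log2 difference of EB KO from EB WT was -0.98 ± 0.25 (adjusted p = 0.0175), with a ratio of mean FPKM of 0.364. This call ended without EB KO replicate 1 (adjusted p = 0.0896), without EB WT replicate 1 (0.0874), without the low-value filter (0.0542) and with the 4 EB libraries fitted alone (0.0625).

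**Figure D1:**
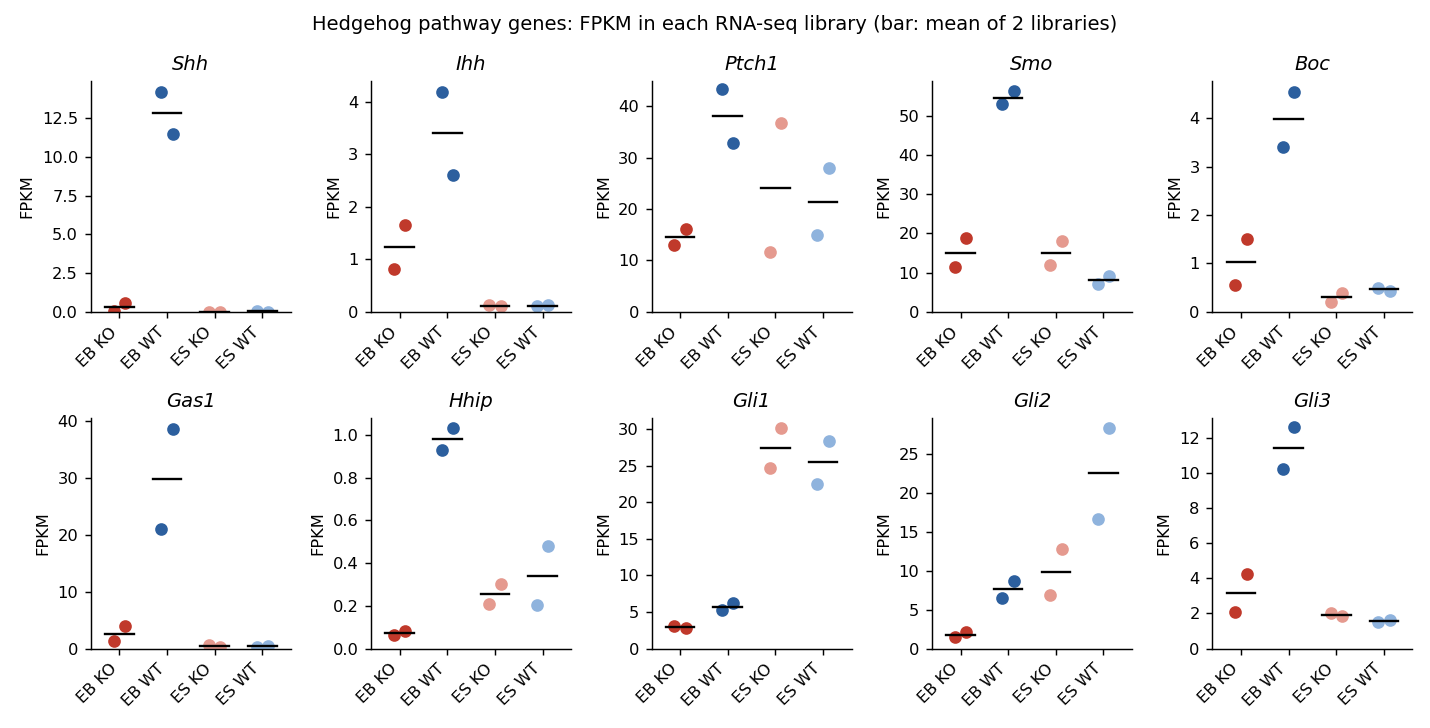
FPKM of each gene (vertical axis, from 0, own scale per panel) in the 4 groups, with 1 point per RNA-seq library and a bar at the mean of 2 libraries. Shh, Ihh, Smo, Boc, Gas1, Hhip and Gli3 were highest in wild type EB, while Gli1 was highest in ES cells of both genotypes, between 22.5 and 30.2 FPKM.

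Smo, the signal transducer, had 11.3 and 18.7 FPKM in EB KO, 52.9 and 56.3 in EB WT, 12.0 and 18.1 in ES KO and 6.96 and 9.20 in ES WT. Wild type EB stood far above the other 3 groups. The log2 difference of EB KO from EB WT was -1.83 ± 0.27 (adjusted p = 0.00233), a ratio of mean FPKM of 0.275.

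Gas1, a GPI-anchored coreceptor, showed the largest gap among the receptor components. It had 1.25 and 3.96 FPKM in EB KO, 21.0 and 38.6 in EB WT, 0.587 and 0.351 in ES KO and 0.306 and 0.483 in ES WT. The log2 difference of EB KO from EB WT was -3.14 ± 0.42 (adjusted p = 0.00157), a ratio of mean FPKM of 0.0873. Boc, the other coreceptor, had 0.5498 and 1.5006 FPKM in EB KO, 3.41 and 4.55 in EB WT, 0.196 and 0.399 in ES KO and 0.489 and 0.439 in ES WT. Its log2 difference between EB KO and EB WT was -1.33 ± 0.26 (adjusted p = 0.00635). For both genes the EB groups did not overlap.

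Ptch1, the receptor and a target, had 13.0 and 16.1 FPKM in EB KO, 43.3 and 32.8 in EB WT, 11.5 and 36.7 in ES KO and 14.9 and 27.9 in ES WT. The EB groups did not overlap, but the ES libraries of 1 genotype differed by more than the genotypes did. The log2 difference of EB KO from EB WT, -1.33 ± 0.51, was not called (adjusted p = 0.0694). With the 4 EB libraries alone the same difference was called (adjusted p = 0.0135), as it was without ES KO replicate 1 (0.0155) or ES KO replicate 2 (0.0156). Both second ES libraries were also higher for Gli1, Gli2 and Smo.

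Hhip, the inhibitor and a target, was low throughout and was not tested. It had 0.0624 and 0.0825 FPKM in EB KO, 0.931 and 1.03 in EB WT, 0.209 and 0.304 in ES KO and 0.202 and 0.482 in ES WT. The EB KO libraries were the lowest of the 8 and the EB WT libraries the highest.

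Gli1, a transcription factor and the usual readout of the pathway, was highest in ES cells of both genotypes, unlike the ligands, the coreceptors, Smo and Gli3. It had 3.04 and 2.74 FPKM in EB KO, 5.27 and 6.19 in EB WT, 24.6 and 30.2 in ES KO and 22.5 and 28.4 in ES WT. In EB WT it fell against ES WT by 1.97 ± 0.17 on the log2 scale (adjusted p = 0.000109), a ratio of mean FPKM of 0.225. In EB KO it fell against ES KO by 2.86 ± 0.17 (adjusted p = 0.000420), a ratio of 0.105. EB KO was lower than EB WT by -0.79 ± 0.17 (adjusted p = 0.00974). This call ended without EB WT replicate 2 (adjusted p = 0.0627).

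Gli2, the main activator, was the member that came nearest to a difference between ES KO and ES WT. It had 1.52 and 2.07 FPKM in EB KO, 6.50 and 8.68 in EB WT, 6.85 and 12.8 in ES KO and 16.7 and 28.3 in ES WT. The knockout libraries lay below the wild type ones at both stages without overlap. The log2 difference was -1.62 ± 0.34 in EB (adjusted p = 0.00820) and -1.13 ± 0.34 in ES cells (adjusted p = 0.209). The call in EB ended without EB KO replicate 1 (adjusted p = 0.0560) or EB WT replicate 2 (0.0586).

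Gli3, the factor that acts largely as a repressor, had 2.06 and 4.25 FPKM in EB KO, 10.3 and 12.6 in EB WT, 2.00 and 1.86 in ES KO and 1.51 and 1.64 in ES WT. It was lower in EB KO than in EB WT by -1.63 ± 0.27 on the log2 scale (adjusted p = 0.00325). In EB WT Gli3 thus stood above Gli2 and Gli1 in FPKM, while in ES WT both were above Gli3.

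**Figure D2:**
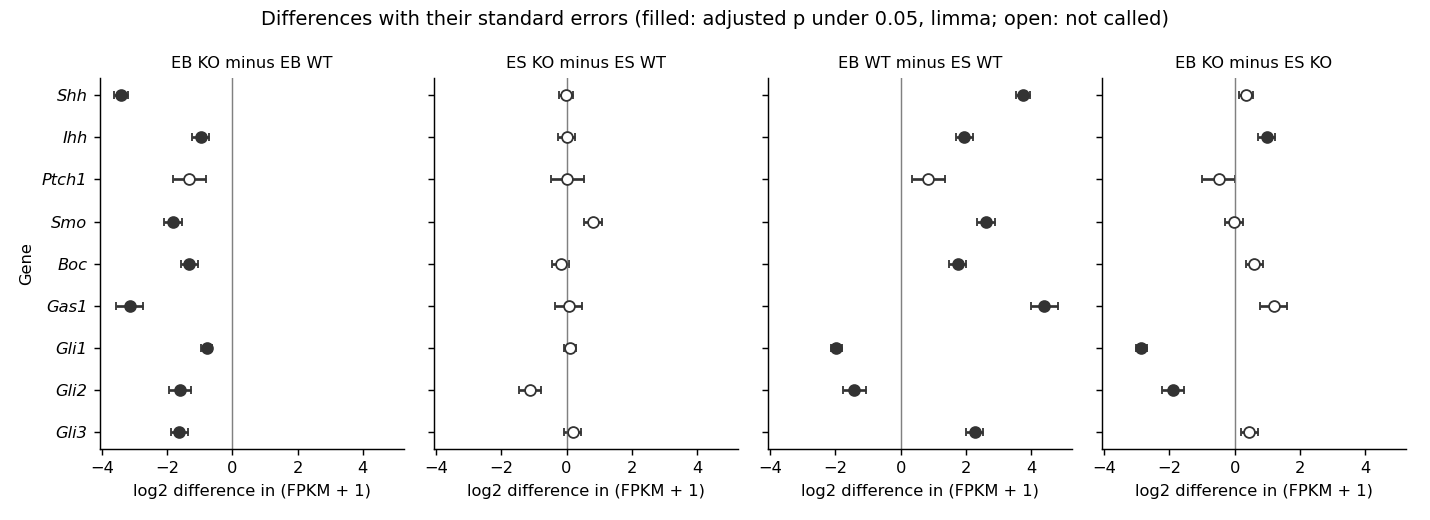
Log2 differences in FPKM + 1 (horizontal axis) with standard errors from limma for the 9 tested genes in 4 comparisons, filled where the adjusted p was under 0.05. All 9 points lie below 0 for EB KO minus EB WT, 8 of them called, and 0 of 9 are called for ES KO minus ES WT.

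Between ES KO and ES WT limma called 0 of the 9 members, against 0.421% of all genes higher and 0.0778% lower. At an unadjusted p under 0.05 there were 2, Gli2 and Smo, but the share of all genes at that looser threshold was not counted. Smo was at 0.80 ± 0.27 on the log2 scale (adjusted p = 0.258), and its ES KO values lay above its ES WT values.

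In EB WT against ES WT, 6 of the 9 tested members rose, 2 fell and Ptch1 was not called (0.85 ± 0.51, adjusted p = 0.184), though it was without ES KO replicate 1 (0.0492) or ES KO replicate 2 (0.0498). Over all genes 36.1% were called higher and 24.8% lower, that is 5576 and 3824 genes, against 4478 and 5188 with quantile normalization. That scaling put the median of all genes at -0.11, against 0.12. Gas1 rose by 4.41 ± 0.42, Shh by 3.74 ± 0.22, Smo by 2.62 ± 0.27, Gli3 by 2.27 ± 0.27, Ihh by 1.95 ± 0.25 and Boc by 1.76 ± 0.26 on the log2 scale. Of these, Shh, Ihh and Boc passed the filter only because of the wild type EB libraries. The fall of Gli2, -1.42 ± 0.34 (adjusted p = 0.00917), was not called without EB WT replicate 1 (adjusted p = 0.0628) or ES WT replicate 2 (0.0582).

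In EB KO against ES KO, 1 of 9 rose and 2 fell, against 17.1% and 12.0% of all genes. Ihh rose by 0.98 ± 0.25 (adjusted p = 0.0273), with every EB KO value above every ES KO value, but 6 of the alternative settings ended that call (adjusted p from 0.0596 to 0.111). Gli1 and Gli2 fell, Gli2 by 1.90 ± 0.34 (adjusted p = 0.00847). Smo was at -0.01 ± 0.27 (adjusted p = 0.979), Gas1 at 1.19 ± 0.42 (0.0703) and Shh at 0.35 ± 0.22 (0.267). The comparisons share libraries, so their values are not independent.

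The difference between the knockout effect in EB and that in ES cells was tested as an interaction. Of the 9 members 5 were called lower and 0 higher, against 18.6% and 12.7% of all genes (2874 and 1959, or 2310 and 2471 with quantile normalization). They were Shh at -3.39 ± 0.31, Gas1 at -3.22 ± 0.59, Smo at -2.64 ± 0.39, Gli3 at -1.82 ± 0.38 and Gli1 at -0.89 ± 0.25. Shh passed the filter through the wild type EB libraries alone, so its call is built into the count. The call for Gli1 ended under 9 alternative settings (adjusted p from 0.0576 to 0.101) and that for Gli3 without EB WT replicate 2 (0.0523), and leaving out 1 library gave from 3 to 6 calls. For Gli2 it was -0.49 ± 0.48 (adjusted p = 0.474), so its difference between the genotypes was not shown to depend on the stage.

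The ChIP tables give 1 deposited signal value per gene, and with 1 library per group there is no test. The value rises with locus length and was therefore compared only within a gene. A gene was counted as higher or lower past a 2-fold ratio of values with 0.1 added. The 1 EB WT library of a mark enters both its comparison with ES WT and that with EB KO. Those ratios are therefore not independent.

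Wild type EB gained H3K27me3 over ES cells at both ligands, at Gli1 and at Gli2, and knockout EB had less of it than wild type EB at both ligands and Gli1 but not at Gli2. H3K27me3 at Shh was 28.5 in EB KO, 99.6 in EB WT, 9.87 in ES KO and 15.6 in ES WT. At Ihh it was 18.2 in EB KO, 65.1 in EB WT, 8.03 in ES KO and 13.6 in ES WT. At Gli1 it was 3.71 in EB KO, 13.2 in EB WT, 0.400 in ES KO and 0.507 in ES WT. Both ES values of Gli1 are small, 15 and 19 steps of the 0.0267 in which the file's values move.

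The log2 H3K27me3 ratio of EB KO over EB WT was -1.84 for Ihh, -1.80 for Gli1 and -1.80 for Shh. Those ratios stood at percentiles 1.4, 1.6 and 1.6 among all genes, whose median was 0.10. Boc was the member past 2-fold in the other direction, with 36.4 in EB KO and 17.5 in EB WT (log2 ratio 1.05). With each library divided by its median, the log2 ratio of Boc was 0.85 and no longer past 2-fold. In all, 3 of the 10 members were lower and 1 higher, against 6.72% and 5.82% of all genes. At the 3 that had less H3K27me3 the RNA was lower in EB KO too. It was also lower at Boc, which had more H3K27me3, and 8 of the 9 tested members were called lower in RNA.

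**Figure D3:**
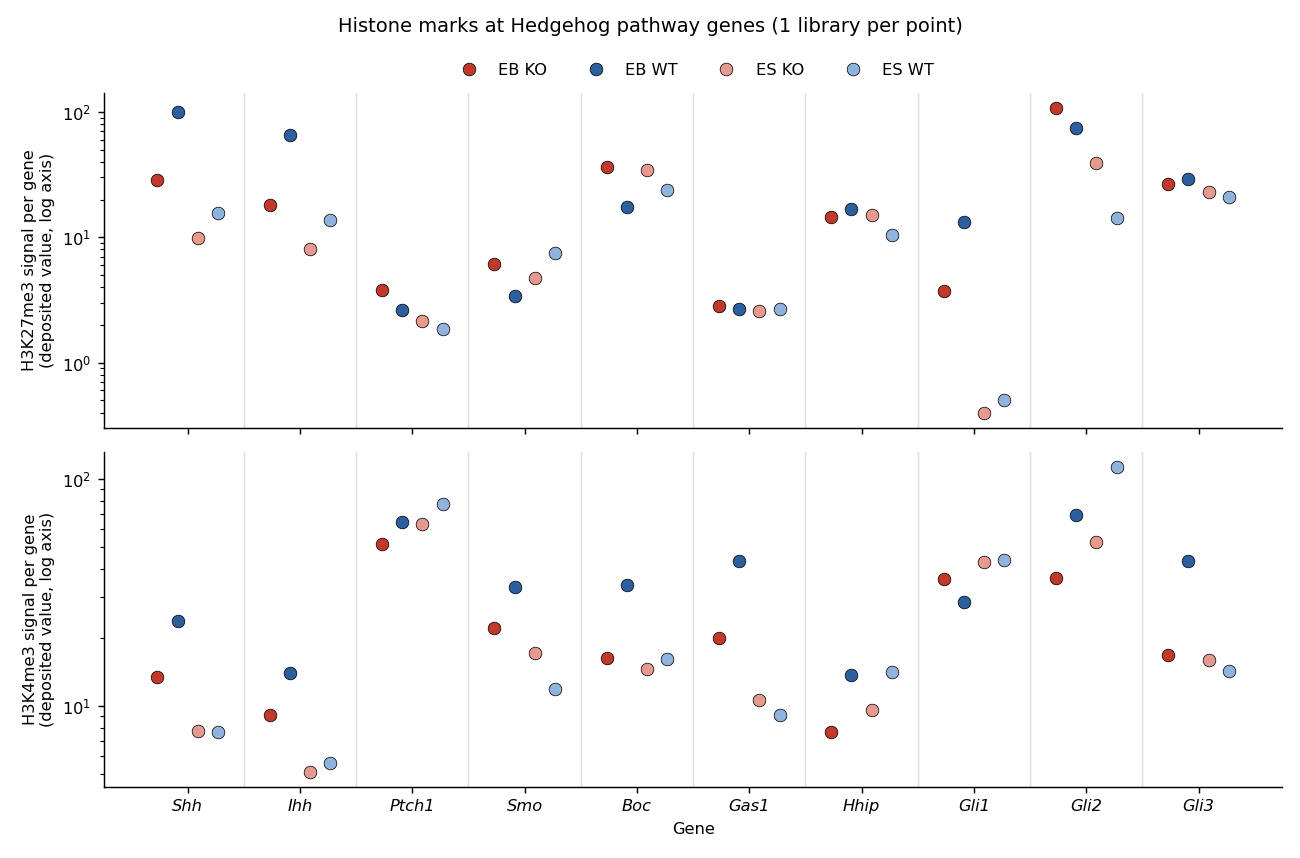
Deposited H3K27me3 (top) and H3K4me3 (bottom) signal per gene on log axes, with 1 point per library. H3K27me3 at Shh, Ihh and Gli1 was highest in wild type EB, at 99.6, 65.1 and 13.2, and the knockout EB points lie between it and the ES points.

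At Gli2 the knockout libraries had more H3K27me3 and less H3K4me3 at both stages. Its H3K27me3 was 108 in EB KO, 73.9 in EB WT, 39.1 in ES KO and 14.3 in ES WT. Its H3K4me3 was 36.4 in EB KO, 69.2 in EB WT, 52.7 in ES KO and 112.5 in ES WT. In ES cells the H3K27me3 ratio of knockout over wild type was 2.73 (log2 1.44, percentile 99.9 among all genes). The H3K4me3 ratio was 0.468 (log2 -1.09, percentile 0.2). The RNA, with means of 9.82 FPKM in ES KO and 22.5 FPKM in ES WT, stood on the same side as the H3K4me3. With 1 ChIP library a group and Gli2 RNA not called in ES cells, none of these has a replicate check that passes a threshold.

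Gli2 was the single member past 2-fold for either mark between ES KO and ES WT. It was 1 of 10 higher for H3K27me3 (1.14% of all genes were) with 0 of 10 lower (2.43%), and 1 of 10 lower for H3K4me3 (0.318%) with 0 of 10 higher (0.743%). H3K27me3 at Ihh, Shh and Smo had ratios of 0.589, 0.634 and 0.639.

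In EB WT against ES WT, H3K27me3 was past 2-fold higher at 4 of 10 members and lower at 1, against 11.8% and 9.02% of all genes. The ratio of the deposited values was 26.0 at Gli1, 6.39 at Shh, 5.17 at Gli2 and 4.78 at Ihh. Smo was the lower member, with 3.40 in EB WT and 7.47 in ES WT. In EB KO against ES KO the same 4 genes were past 2-fold higher and 0 lower, against 7.60% and 1.55% of all genes. Their ratios in knockout were 9.27 at Gli1, 2.89 at Shh, 2.75 at Gli2 and 2.26 at Ihh. For Gli1, with its low ES values, the log2 ratio depended on the added value: with 0.5 in place of 0.1 it was 2.22 against 2.93 in knockout and 3.76 against 4.45 in wild type. Gas1 stayed between 2.56 and 2.83 in all 4 libraries and Gli3 between 20.9 and 29.3.

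H3K4me3 was higher in EB WT than in ES WT at 6 of 10 members by 2-fold or more and lower at 0, against 9.28% and 10.9% of all genes. The ratio was 4.75 at Gas1, 3.08 at Shh, 3.06 at Gli3, 2.80 at Smo, 2.50 at Ihh and 2.10 at Boc. The 6 were also the genes whose RNA was called higher, and with each library divided by its median 4 of them stayed past 2-fold, all but Ihh and Boc. Shh and Ihh thus had more of both marks in wild type EB than in ES cells. In EB KO against ES KO 0 of 10 were past 2-fold either way, against 1.35% higher and 1.94% lower of all genes, and the highest ratios were 1.87 at Gas1, 1.78 at Ihh and 1.72 at Shh.

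Between EB KO and EB WT, H3K4me3 was lower at 9 of the 10 members, and 3 of 10 were past 2-fold lower and 0 higher, against 3.24% and 8.55% of all genes. The median log2 ratio was -0.81 over the members and -0.08 over all genes. With that median below 0, a lower value of any size was common, but its share over all genes was not counted. Ptch1, at -0.33, stood at percentile 29.0 among all genes. Gli3 had 16.7 in EB KO and 43.5 in EB WT, Gas1 19.9 in EB KO and 43.2 in EB WT, and Boc 16.2 in EB KO and 33.9 in EB WT. With each library divided by its median, Gli3 alone was past 2-fold, at a log2 ratio of -1.20. Gli1 had 36.2 in EB KO and 28.7 in EB WT, and was the member with a higher value.

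**Figure D4:**
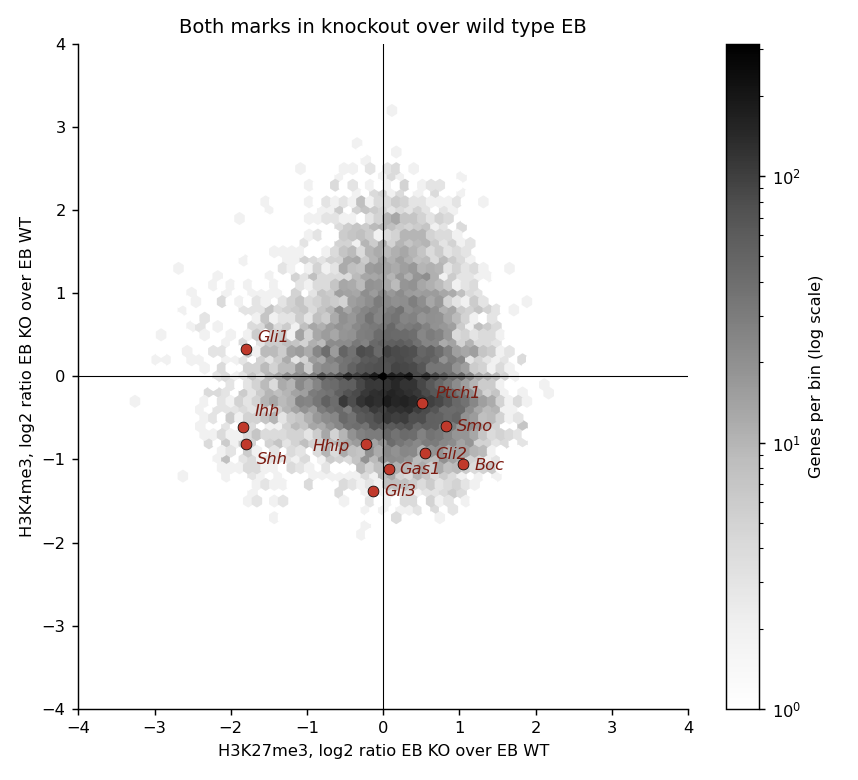
Log2 ratio of EB KO over EB WT for H3K27me3 (horizontal) and H3K4me3 (vertical), with all 20462 genes as grey bins (darker bins hold more genes) and the 10 members as red points. Ihh, Shh and Gli1 lie at H3K27me3 ratios from -1.84 to -1.80, and Gli3 has the lowest H3K4me3 ratio of the members, -1.38.

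Other genes of the pathway were counted from lists. Of 8 tested genes for ligand processing, release and reception besides the members, 6 fell in EB KO against EB WT and 0 rose, with a median log2 difference of -1.05, against 25.9% lower and 20.0% higher of all genes. Hhat reached 1 FPKM in the wild type EB libraries alone, and Scube1 in those and EB KO replicate 2. Both passed the filter only because of wild type EB. Scube1, a secreted protein of the family that helps release the ligand, was at -3.38 ± 0.43 (adjusted p = 0.00137), and Scube3, of the same family, at -1.93 ± 0.31. Cdon, a coreceptor related to Boc, was at -1.02 ± 0.21, and Hhat, the enzyme that puts palmitate on the ligand, at -1.07 ± 0.24. The call for Hhat ended without EB KO replicate 1 or without EB WT replicate 2.

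Among 16 tested genes known as Hedgehog targets in some tissue, limma called 11 lower and 0 higher (median log2 difference -1.40), against 25.9% and 20.0% of all genes. Osr1, Pax9, Nkx6-1, Nkx3-2 and Bcl2 reached 1 FPKM in the wild type EB libraries alone, and Foxf2 in those and EB KO replicate 2. All of them passed the filter only because of wild type EB, so their differences are built into the count. Osr1, a transcription factor of lateral and intermediate mesoderm, was at -2.12 ± 0.16 (adjusted p = 0.000326) and Foxf2, a factor of gut mesenchyme, at -2.25 ± 0.22. Pax9, a factor of sclerotome and pharyngeal endoderm, was at -1.83 ± 0.21 and Nkx6-1, a factor of ventral neural tube and pancreas, at -1.17 ± 0.15. Among the growth and survival genes of the list, Ccnd2 was called at -3.89 (adjusted p = 0.00249) and Bcl2 at -1.45 (0.00301). Not called were Ccnd1 at 0.02 ± 0.17 (adjusted p = 0.921), Mycn at 0.14 ± 0.30 (0.730) and Foxm1 at -0.15 ± 0.14 (0.437), all 5 chosen after their values were seen. Of 21 target genes in the ChIP table, 13 had less H3K27me3 in EB KO than in EB WT by 2-fold or more and 0 more, and 11 had less H3K4me3 by 2-fold or more, against 6.72% and 3.24% of all genes.

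Among 17 tested cytoplasmic regulators 8 were lower and 1, Arrb2, higher (median -0.47), against 25.9% and 20.0% of all genes. Gpr161, among the 8, passed the filter only because of the wild type EB libraries. Gnas, the stimulatory G protein subunit and an imprinted gene, was at -2.22 ± 0.21 (adjusted p = 0.000538). Prkaca and Prkacb, catalytic subunits of protein kinase A, which restrains GLI proteins, were at -1.02 ± 0.11 and -0.77 ± 0.11. Sufu, which holds GLI proteins inactive, was at -1.07 ± 0.18. For primary cilium genes the counts were 7 lower and 0 higher of 20 (median -0.41), a share not far from the 25.9% of all genes called lower. The smallest adjusted p was that of Ttbk2, a kinase that starts cilium growth, at -1.32 ± 0.20. Bbs1, a subunit of the BBSome, was at -0.78 ± 0.17, and Ift122 and Ift27, intraflagellar transport subunits, at -0.95 ± 0.22 and -0.54 ± 0.13. The calls for Ift122 and Ift27 each ended without EB KO replicate 1 or without EB WT replicate 1. Activators and inhibitors of the pathway both appear among the genes that fell.

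**Figure D5:**
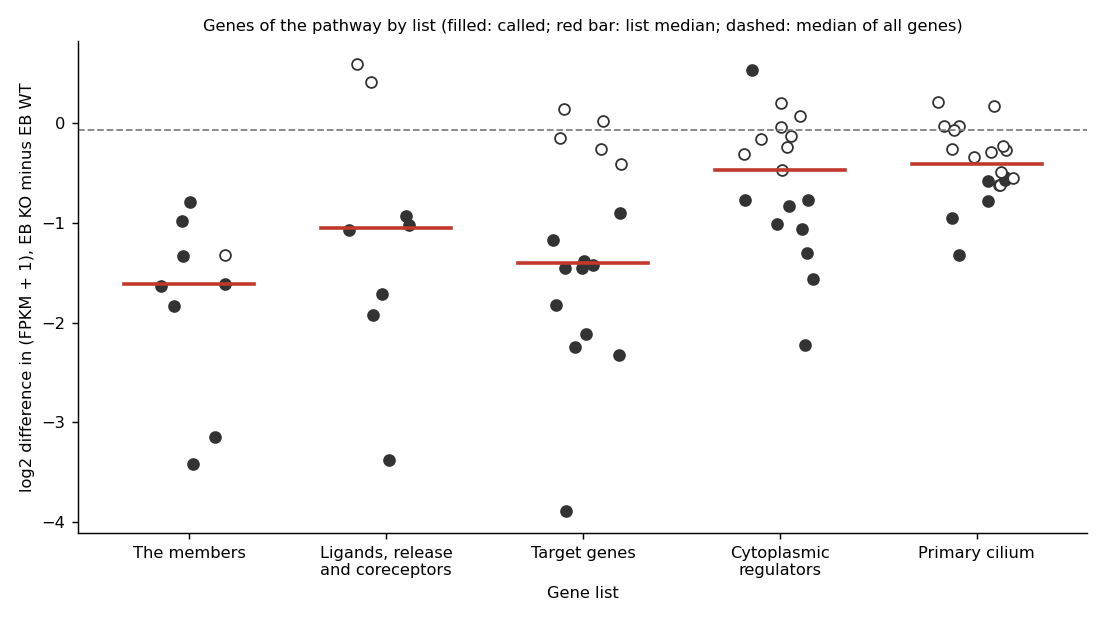
Log2 difference in FPKM + 1 of EB KO minus EB WT (vertical axis) for the tested genes of 5 lists, filled where called, with a red bar at each list's median and a dashed line at the median of all genes, -0.06. The members' median is -1.62 and those of target genes, ligand genes, cytoplasmic regulators and cilium genes are -1.40, -1.05, -0.47 and -0.41.

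Cell type markers were counted in EB KO against EB WT too, where 25.9% of all genes were called lower and 20.0% higher. The endoderm and neuroectoderm lists held genes called either way. Of 10 mesenchyme and fibroblast markers 10 fell in EB KO against EB WT, among them Dcn (which passed the filter through wild type EB alone) at -3.12, Lum at -4.68, Postn at -5.08 and Col1a2 at -3.08, and their summed FPKM was 21.8 and 81.1 in EB KO and 812 and 1045 in EB WT. Of 10 endoderm markers 6 fell and 1 rose. Gata6 at -3.12, Foxa1 at -2.10, Afp at -3.49 and Foxa2 at -1.38 were among those that fell. Hnf4a was the one that rose (0.63), while Sox17 (-0.71), Apoa1 (0.94) and Cer1 (1.10) were not called. The endoderm sums were 71.2 and 175 in EB KO and 316 and 399 in EB WT. Of 6 tested notochord and floor plate markers 4 fell. They were T at -1.21, Nog at -1.20 (not called with a pseudocount of 0.1, adjusted p = 0.0505), the member Shh, and Foxa2, which is also in the endoderm and target lists. Chrd (-0.35) and Foxj1 (0.41) were not called, and Noto did not pass the filter. The sums were 13.1 and 23.6 in EB KO and 53.3 and 53.8 in EB WT. Of those EB WT sums Foxa2 made up 20.8 and 21.8 FPKM and Shh 14.2 and 11.5. Of 6 tested neuroectoderm markers 4 fell (Irx3 at -2.93, Lhx2 at -2.83 and Nes at -1.94 among them) and 1 rose, Otx2 at 1.39, with sums of 60.6 and 84.7 in EB KO and 95.1 and 103.5 in EB WT.

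Of 10 cardiac and blood markers 9 fell, with Nkx2-5 at -4.48, Hbb-y at -6.12, Hba-x at -5.84 and Myl4 at -4.73, and sums of 72.0 and 213 in EB KO and 3986 and 2265 in EB WT. All 10 ES cell markers rose, with Zfp42 at 4.07, Esrrb at 3.51, Fgf4 at 3.13 and Tfcp2l1 at 2.44. None of the markers of these 6 lists was listed at 0 in both libraries of an EB group. Lum, Col1a1, Prrx1, Lhx2, Nog and Nkx2-5 reached 1 FPKM only in wild type EB and EB KO replicate 2. Like Dcn, they passed the filter only because of wild type EB. EB KO replicate 2 had the higher sums of mesenchyme, endoderm, notochord, neuroectoderm and cardiac markers of the EB KO libraries, and it was also the higher one for 9 of the 10 Hedgehog genes, all but Gli1. In the other groups too the second library was the higher one for most members, 7 of 10 in EB WT, 6 in ES KO and 8 in ES WT. The share over all genes was not counted. The part of these cell types in the values of the Hedgehog genes was not tested.

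The genes most like Gli1 over the 8 libraries, by Pearson correlation of log2(FPKM + 1), were Mllt6 (r = 0.993), Trmt2a (0.993), Stk35 (0.989), Mras (0.988) and Ercc2 (0.987). Those most like Ihh were Ptpre (0.9985), Rasgrp3 (0.9982), Rasgef1b (0.9978), Klhl4 (0.9977) and Tie1 (0.9965). These are descriptions with no test, and such values are common here, since the libraries form 4 groups of 2: 300 of 12016 genes had r over 0.9 with Gli1 and 2354 with Ihh.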

How the data were processed

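RNA-seq covered 8 libraries and ChIP-seq 8, with 4 input libraries not analysed here. The deposited RNA table holds FPKM values made by the authors, under column names of the kind Cufflinks writes, per the file headers. The submitters' processing notes list Cufflinks 2.2.1, STAR 2.6.0a, HTSeq, Bowtie2, DESeq2 and the build mm10, without saying what each was used for. The deposited ChIP signal is called RPKM on promoters in the file names, but longer loci have higher values (rank correlation over genes between 0.43 and 0.69), and its window, scaling and use of input are not given in the sources used here. Between 93.8% and 99.1% of ChIP values were whole multiples of 0.0267 (0.04 in the wild type EB H3K27me3 library), within 0.02 of a step. All 16 value columns were mapped by name.

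Of 53560 RNA entries 120 second entries of a symbol were left out, keeping the higher mean. Genes with at least 1 FPKM in 2 of 8 libraries (15428) were fitted as log2(FPKM + 1) with limma 3.58.1 (R 4.3.3), 1 mean per group, eBayes with trend, on 4 residual degrees of freedom (7.05 after moderation), and the code was tested on simulated data. Adjusted p-values are Benjamini-Hochberg over all genes of a contrast, two-sided, called under 0.05, and fold changes on this scale understate those of low genes. ChIP ratios had 0.1 added. Named are the members, up to 4 called genes per list with the smallest adjusted p in EB KO minus EB WT, and the 5 genes most correlated with Gli1 and with Ihh. The members and lists were chosen with earlier results of these data known. Alternatives were other pseudocounts, filters, quantile normalization, no trend, fewer libraries, and for ChIP other added values, scaling and folds.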

Additional observations from a re-analysis of the deposited data

Results flagged for a closer look

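For 5 members the difference of EB KO from EB WT was not the same as that of ES KO from ES WT by limma's interaction term (adjusted p under 0.05). The interaction was -3.39 on the log2 scale for Shh (adjusted p = 0.00192), where the EB difference was -3.42 and the ES difference -0.02. Shh passed the filter through the wild type EB libraries alone, so its call is built in. The interaction was -3.22 for Gas1 (0.00912), with -3.14 in EB and 0.07 in ES cells. It was -2.64 for Smo (0.00503), with -1.83 in EB and 0.80 in ES cells. It was -1.82 for Gli3 (0.0133), with -1.63 in EB and 0.19 in ES cells, and its call ended without EB WT replicate 2 (adjusted p = 0.0523). It was -0.89 for Gli1 (0.0324), with -0.79 in EB and 0.11 in ES cells, and 9 of its alternatives ended that call (adjusted p from 0.0576 to 0.101).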

How the results depend on the processing

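The labels number only the second library of each group, so they pair no libraries. As a hint from the data, chosen after seeing them, within-group differences of second minus first library correlated between groups at r from 0.07 to 0.31 across genes, highest in ES cells. With the number as a replicate block, 2 members in place of 1 were called higher in EB KO against ES KO, and Ptch1 in EB KO against EB WT (adjusted p = 0.0486), Gas1 in EB KO against ES KO (0.0486) and the interaction of Boc (0.0362) became calls. Counts of members called lower in EB KO against EB WT stayed within 1.5 times of 8 except with genes of at least 5 FPKM on average, which gave 4. That filter tested fewer members, only Gli1, Gli2, Ptch1, Smo and Gas1, so its counts are not out of the same number. It gave 2 higher in EB WT against ES WT, 0 higher in EB KO against ES KO and 3 in the interaction. Members called higher in EB KO against ES KO numbered 2 with a pseudocount of 0.1, 0 with a pseudocount of 5, 0 without a low-value filter, 0 with the 4 libraries alone and from 0 to 4 leaving out a library. Leaving out a library gave from 1 to 2 members lower in EB WT against ES WT and from 3 to 6 lower in the interaction.

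Differences near 0 changed sign without a call. Leaving out a library, ES KO against ES WT ranged from -0.056 to 0.27 for Gli1, from -0.77 to 0.82 for Ptch1, from -0.042 to 0.19 for Gas1 and from -0.019 to 0.017 for Ihh. It was -0.0015 for Ptch1 and -0.048 for Gas1 with quantile normalization. EB KO against ES KO ranged from -1.29 to 0.30 for Ptch1 and from -0.35 to 0.32 for Smo. The interaction of Gli2 was 0.00076 with a pseudocount of 5. The causes were not tested.

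At 1.5-fold, 2 members had more H3K27me3 in EB KO than EB WT, 3 less in ES KO than ES WT, 8 less H3K4me3 in EB KO than EB WT, 2 less in EB WT than ES WT and 3 more in EB KO than ES KO. Division by library medians left 0 with more H3K27me3 and 1 with less H3K4me3 in EB KO than EB WT. Depth is unknown, and 1 ChIP library per group limits every ChIP value.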
